A study of Mus musculus with 3 samples.

Results

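The simple epithelial keratins examined here are 4 genes, Krt7, Krt8, Krt18 and Krt19, found by symbol among the 31054 features counted in each of 3 embryos. The embryos were labelled wild type, of a C57BL/6 x 129 SvEv background, and were harvested at embryonic day 8 when the earliest somites form. They had 0 to 1 somite by the protocol and 0 to 2 by the stage label. Their extraembryonic tissue was dissected away before dissociation. Each embryo gave 1 single-cell library made with 3' chemistry, and no mutant or treated group was measured. UMIs (unique molecular identifiers, 1 per captured transcript) were counted in every cell. Levels are given per 1000000 UMIs of a class in an embryo (CPM), with n = 3 embryos unless stated.

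Cells were put into 13 classes by UMIs of marker genes that did not include any keratin, so keratin values played no part in forming the classes. The names are short for cells that carried the markers, such as Foxj1 and Dand5 for the left-right organizer (LRO), Shh, T and Noto for the axial mesoderm (notochord and prechordal plate), and Sox17 and Trh for the definitive endoderm. Of 21198 kept cells, 14982 could be placed. They included 2159 extraembryonic endoderm, 983 definitive endoderm, 501 surface ectoderm, 135 LRO and 87 axial mesoderm cells, with 42 to 47 LRO cells and 22 to 40 axial mesoderm cells in an embryo. Extraembryonic endoderm (252 to 1062 cells an embryo) and extraembryonic mesenchyme (1088 cells in all) were thus present although extraembryonic tissue had been removed. Of the 97 markers, 93 were highest in their own class, which is largely fixed in advance because the same markers formed the classes. The libraries had median depths between 14050 and 26011 UMIs per barcode before filtering, and pairs of libraries shared 18 to 22 barcodes. A single erythroid cell was found in embryo 1, so erythroid values rest on embryos 2 and 3. UMIs of the EGFP sequence, which was part of the reference, were present in 20 cells of embryo 1, 21 cells of embryo 3 and no cell of embryo 2, although all 3 embryos are labelled wild type. Embryo 2, without EGFP UMIs, had the highest level of all 4 keratins in LRO cells. The same held in definitive endoderm, surface ectoderm and extraembryonic mesenchyme, where no embryo had EGFP UMIs. In extraembryonic endoderm and allantois, also without EGFP UMIs, embryo 2 had the lowest Krt8 level.

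Keratins build the intermediate filaments of epithelia from obligate pairs of a type II and a type I chain. Krt8 (type II) and Krt18 (type I) form the basic pair of simple, single-layered epithelia and are the earliest keratins of the embryo. Krt19 is a small type I chain and Krt7 a type II chain that are added to this pair in many ductal and glandular epithelia. The notochord is a mesodermal rod known for keratin filaments, and the LRO is a ciliated epithelium-like pit that lies at the posterior end of the notochord.

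On GRCm38 the GENCODE annotation (release M21) places the protein-coding gene Krt8 (ENSMUSG00000049382) at chr15:101996698-102004482 on the minus strand and Krt18 (ENSMUSG00000023043) at chr15:102028180-102032027 on the plus strand. They point away from each other, and their 5' ends are 23698 bases apart. Krt7 (ENSMUSG00000023039) is at chr15:101411043-101430313 on the plus strand, and Krt19 (ENSMUSG00000020911) is at chr11:100140810-100148665 on the minus strand. Of the 49 keratin features named by Krt and a number, 24 are on chromosome 15 and 25 on chromosome 11. Krt18 is thus a type I gene that lies among the keratins of chromosome 15 and next to its partner Krt8.

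To show the start regions of the basic pair and of Krt7, the windows around their RefSeq start sites (250 bases before and 50 after, GRCm38.p6, gene strand) are printed. The windows are chr15:102004293-102004592 on the minus strand for Krt8, chr15:102027966-102028265 on the plus strand for Krt18 and chr15:101412153-101412452 on the plus strand for Krt7. Capitals mark every match, on either strand, to TATAAA (the letters of a TATA box), to GGGCGG (the GC box), to GCCNNNGGC (a palindrome bound by AP-2 factors), to TGANTCA (bound by AP-1) or to TGTTTAC (bound by forkhead factors), where overlapping matches run together.
Krt8: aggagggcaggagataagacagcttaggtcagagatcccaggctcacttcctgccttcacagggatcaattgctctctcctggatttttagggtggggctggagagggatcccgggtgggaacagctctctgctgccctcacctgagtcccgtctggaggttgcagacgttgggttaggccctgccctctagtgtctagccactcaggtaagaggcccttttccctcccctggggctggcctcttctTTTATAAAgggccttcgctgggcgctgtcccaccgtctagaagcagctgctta
Krt18: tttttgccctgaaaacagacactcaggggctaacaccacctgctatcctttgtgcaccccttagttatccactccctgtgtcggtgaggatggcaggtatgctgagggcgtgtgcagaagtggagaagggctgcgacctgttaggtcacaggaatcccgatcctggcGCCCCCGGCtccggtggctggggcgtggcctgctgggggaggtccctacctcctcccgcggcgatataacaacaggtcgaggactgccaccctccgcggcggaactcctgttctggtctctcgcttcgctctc
Krt7: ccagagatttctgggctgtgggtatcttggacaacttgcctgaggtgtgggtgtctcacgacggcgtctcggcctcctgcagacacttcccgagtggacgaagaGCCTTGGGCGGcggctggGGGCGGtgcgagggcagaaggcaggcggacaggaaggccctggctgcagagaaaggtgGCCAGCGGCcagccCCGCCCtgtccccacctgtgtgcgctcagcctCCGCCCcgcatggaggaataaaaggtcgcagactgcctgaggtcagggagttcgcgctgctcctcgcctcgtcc
The Krt8 window held TATAAA on both strands in overlap, with first bases at -3 and -1 from the RefSeq start site, so that the matches lie across that site, and no other match. The Krt18 window held 1 GCCNNNGGC match and no TATAAA. The Krt7 window held 4 matches to GGGCGG and 2 to GCCNNNGGC. Among all 32851 RefSeq windows of this length, 13.6% held TATAAA, 35.7% GGGCGG, 16.6% GCCNNNGGC, 7.81% TGANTCA and 3.65% TGTTTAC. No motif was matched in all 3 keratin windows. RefSeq and GENCODE place the 5' end of these genes 140, 36 and 1360 bases apart for Krt8, Krt18 and Krt7.

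Krt8 was highest in the axial mesoderm, with 2862, 2589.7 and 2279.7 CPM in embryos 1, 2 and 3 (2577 ± 291, SD). The next classes were the definitive endoderm at 1410.0 ± 154 CPM, the LRO at 1289 ± 299 and the extraembryonic mesenchyme at 1256 ± 123. The ranges of the last 3 classes overlapped, whereas all 3 axial mesoderm values lay above all of theirs. A middle set followed, made of the allantois (514 ± 49.0 CPM), surface ectoderm (491 ± 82.7), cardiac mesoderm (461 ± 62.0) and extraembryonic endoderm (374 ± 31.7), in which each class overlapped its neighbour. Endothelium (152 ± 26.2), paraxial mesoderm (95.8 ± 17.4), neural plate (69.5 ± 11.7) and presomitic mesoderm (59.4 ± 13.3) were lower. With classes taken from clusters in place of marker gates, the paraxial mesoderm and neural plate means were 62.3 and 39.5 CPM and the erythroid mean was 27.6 CPM. Erythroid cells were taken to show the level given by free RNA, on the assumption, which was not tested, that they lack keratins. They had 17.5 and 15.2 CPM, below every value of every other class.

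Krt18 followed nearly the same order. It reached 2053, 1859 and 1675 CPM in the axial mesoderm (1862 ± 189) and 1487, 2168 and 1733 CPM in the definitive endoderm (1796 ± 345), and these ranges overlapped. The extraembryonic mesenchyme had 1318 ± 298 CPM and the LRO 829 ± 170, with no overlap between them. Surface ectoderm (589 ± 134) and extraembryonic endoderm (484 ± 23.0) overlapped, and the presomitic mesoderm was the lowest class besides erythroid cells at 58.1 ± 13.6 CPM. With classes from clusters it had 31.4 CPM and erythroid cells 26.9 CPM. The LRO mean was then 587 ± 56.1 CPM, below the surface ectoderm mean of 653 ± 122 CPM. From the highest class to erythroid cells, Krt8 covered a 158-fold and Krt18 a 110-fold range of mean levels.

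Krt19 had the widest range. It stood at 879, 968 and 639.6 CPM in the axial mesoderm (829 ± 170), at 154, 273 and 200.4 CPM in the LRO (209 ± 60.1) and at 58.1, 104 and 97.6 CPM in the definitive endoderm (86.5 ± 24.8). With marker gates, no value of any of these 3 classes overlapped the next. Allantois (21.0 ± 4.29), extraembryonic mesenchyme (20.9 ± 3.22) and surface ectoderm (14.6 ± 4.71) overlapped further down, and the presomitic mesoderm had 1.74 ± 0.0116 CPM against 0.641 and 0.498 CPM in erythroid cells. With classes from clusters, Krt19 in paraxial mesoderm (0.946 CPM) and neural plate (1.04 CPM) lay below the erythroid mean of 1.35 CPM. The LRO mean was then 105 ± 0.720 CPM, within 1 SD of the definitive endoderm mean of 94.1 ± 25.1 CPM, so their gap was not kept. The axial mesoderm and extraembryonic mesenchyme, both among the highest classes for Krt8, thus lay far apart for Krt19.

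Krt7 was the least abundant member and the only one highest in the definitive endoderm, with 50.7, 91.8 and 56.8 CPM (66.5 ± 22.2). The axial mesoderm had 35.8, 40.6 and 29.3 CPM (35.2 ± 5.65), below every definitive endoderm value. It overlapped the LRO (25.3 ± 8.86), and the surface ectoderm followed with 12.97 ± 3.89 CPM. Extraembryonic mesenchyme (3.80 ± 2.16) and extraembryonic endoderm (3.48 ± 0.937) were lower still. The allantois had 0, 3 and 2 Krt7 UMIs in all, which with 203 to 472 cells an embryo is at or under the limit of 3 UMIs that a count of 0 allows. Krt7 in presomitic (0.573 ± 0.283 CPM) and paraxial mesoderm (0.518 ± 0.235 CPM) overlapped the erythroid values of 0.480 and 0.747 CPM and was read as background. That reading rests on the assumption about erythroid cells. Every Krt7 value of endothelium (0.190 ± 0.233 CPM) and allantois (0.255 ± 0.238 CPM) lay below both erythroid values, so erythroid cells do not set a strict floor.

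**Figure D1:**
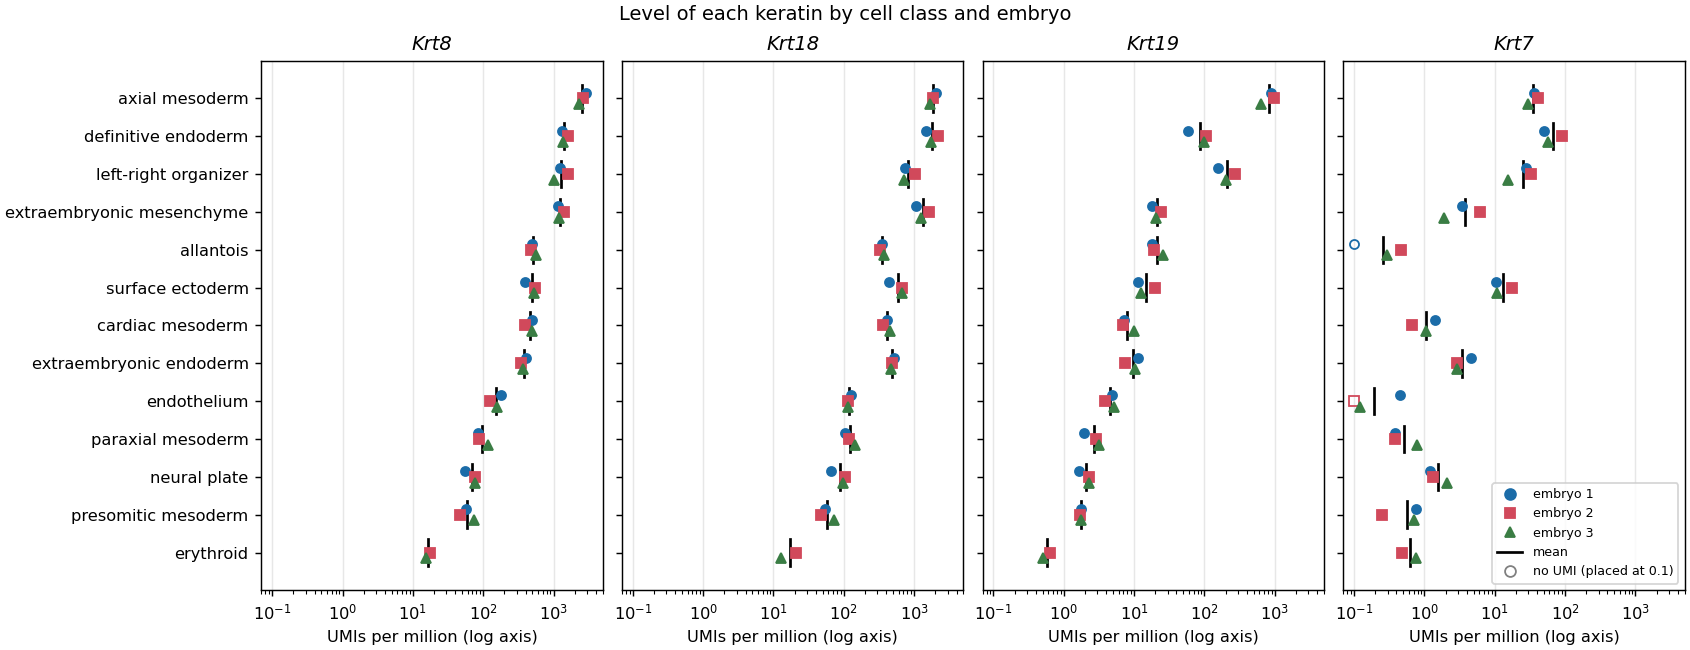
Level of Krt8, Krt18, Krt19 and Krt7 (CPM, log axis) in 13 cell classes, 1 symbol per embryo and a line at the mean, with open symbols where no UMI was counted. Axial mesoderm heads the Krt8, Krt18 and Krt19 panels with means of 2577, 1862 and 829, while Krt7 is highest in the definitive endoderm with a mean of 66.5.

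Cells differ in depth, so the share of cells with a UMI was also taken after each cell was thinned to 5000 UMIs and shallower cells were left out. Krt8 UMIs were then present in 98.9% ± 0.684 of definitive endoderm, 98.6% ± 1.32 of extraembryonic mesenchyme, 97.15% ± 2.48 of axial mesoderm and 93.1% ± 4.05 of LRO cells, against 6.79% ± 2.03 of erythroid cells (n = 2). Without thinning the erythroid share was 18.2% ± 4.32 and those of the 4 classes were 98.5% to 99.8%. Surface ectoderm was less uniform, with Krt8 in 71.2% ± 5.06 and Krt18 in 77.6% ± 3.80 of thinned cells. Krt19 was present in 87.95% ± 1.56 of thinned axial mesoderm cells, 47.3% ± 4.57 of LRO cells and 25.9% ± 5.96 of definitive endoderm cells, against 0.341% ± 0.130 of erythroid cells. Without thinning these Krt19 shares were 92.6%, 77.5%, 49.9% and 0.928%. The thinned Krt7 share was 25.6% ± 5.81 in definitive endoderm, 19.9% ± 10.5 in axial mesoderm and 13.5% ± 6.03 in LRO cells, against 0.187% ± 0.264 in erythroid cells, and 55.8%, 36.15%, 27.4% and 1.02% without thinning. Thinning left out 12 LRO cells, 9 of them in embryo 2, and 2 axial mesoderm cells.

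Classes were compared on UMI sums per embryo with edgeR's quasi-likelihood test over 14682 genes, and a gene was called at a Benjamini-Hochberg adjusted p under 0.05. The embryo sums of 1 class come from separate animals. The classes of a comparison come from the same embryos, and the main fit did not pair them. A fit with the embryo as a block was run as an alternative. Trunk mesoderm, the mean of presomitic and paraxial mesoderm, served as the shared reference of 6 comparisons, which are therefore not independent of each other. The name is short for these 2 classes and is not exact. The paraxial markers include Tbx1, which the paper gives as a mark of head mesoderm, so the reference can hold head mesoderm. Of 1818 paraxial cells, 836 fell in the paraxial and 347 in the cardiac mesoderm cluster, and 444 in clusters that could not be named. Of 1650 presomitic cells, 876 fell in the presomitic cluster, 629 in clusters that could not be named and 123 in allantois clusters. In the definitive endoderm all 4 keratins were higher than in trunk mesoderm, in a comparison in which 47.3% of all genes were called. The log2 fold changes were 4.17 ± 0.134 (SE) for Krt8, 4.36 ± 0.159 for Krt18, 5.29 ± 0.195 for Krt19 and 6.80 ± 0.266 for Krt7, with adjusted p between 2.65e-24 and 1.01e-21. The median log2 fold change over all genes tested was -0.01. Because Krt7 in trunk mesoderm was read as background, its fold changes against trunk mesoderm, in every class, are measured over that background and do not give the fold over its expression there. Krt19 was 1.74 CPM in presomitic and 2.65 CPM in paraxial mesoderm, against an erythroid mean of 0.569 CPM. With classes from clusters it was 1.39 and 0.946 CPM, against an erythroid mean of 1.35 CPM. In the gated classes every presomitic and paraxial value lay above both erythroid values. The erythroid cluster also held 82 cells gated as endothelium and 218 without a class, so its level is not that of erythroid cells alone. Krt19 fold changes against trunk mesoderm, in every class, thus rest on a low reference. Its distance from background differed between the ways of forming classes.

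All 4 keratins were also higher in surface ectoderm than in trunk mesoderm, where 19.4% of genes were called. The changes were smaller than in endoderm for each member, at 2.71 ± 0.133 for Krt8, 2.81 ± 0.157 for Krt18, 2.75 ± 0.276 for Krt19 and 4.47 ± 0.347 for Krt7 (adjusted p at most 6.45e-10). The direct comparison of surface ectoderm with definitive endoderm called all 4 as lower, with 30.6% of genes called. The log2 fold change was -1.46 ± 0.158 for Krt8, -1.55 ± 0.187 for Krt18, -2.33 ± 0.272 for Krt7 and -2.54 ± 0.232 for Krt19, with adjusted p between 6.51e-11 and 3.73e-08. Against the neural plate, the other ectodermal class, surface ectoderm was higher in all 4 (14.8% of genes called), with log2 fold changes that lay close together at 2.81 ± 0.167 for Krt8, 2.72 ± 0.196 for Krt18, 2.79 ± 0.294 for Krt19 and 3.03 ± 0.330 for Krt7 (adjusted p at most 6.41e-09). The neural plate values of Krt8 (56.0, 76.0 and 76.6 CPM) and those of the surface ectoderm (397, 553 and 523 CPM) did not overlap. Neural plate means were only 2.07 CPM for Krt19 and 1.54 CPM for Krt7, against 0.569 and 0.614 CPM in erythroid cells. With classes from clusters, neural plate Krt19 (1.04 CPM) lay below the erythroid mean of 1.35 CPM. Such low levels limit the fold changes of Krt19 and Krt7, and their closeness to those of Krt8 and Krt18 is not read further.

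Within endoderm, the 2 classes differed in all 4 keratins. Extraembryonic endoderm, which serves nutrition and made much Ttr, was lower than definitive endoderm, with a log2 fold change of -1.67 ± 0.158 for Krt8, -1.64 ± 0.186 for Krt18, -2.91 ± 0.208 for Krt19 and -4.05 ± 0.278 for Krt7 (adjusted p at most 1.19e-09). This comparison called 64.8% of all genes, more than any other of the 11. The Krt8 values were 406, 343 and 373 CPM in extraembryonic and 1301, 1586 and 1343 CPM in definitive endoderm. The 9 extraembryonic endoderm markers summed to 279.6 to 432 CPM in the definitive endoderm cells and to 31.3 to 97.8 CPM in the surface ectoderm, and none of the 9 was without a UMI in either class. The part of such UMIs in the keratin differences was not tested.

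Axial mesoderm was higher than trunk mesoderm in all 4 keratins (16.2% of genes called). Krt19 had a log2 fold change of 8.50 ± 0.201, Krt7 of 5.85 ± 0.495, Krt8 of 4.97 ± 0.140 and Krt18 of 4.34 ± 0.164, with adjusted p between 1.12e-27 and 2.17e-11. Set directly against definitive endoderm (10.4% of genes called), axial mesoderm was higher in Krt19 by 3.21 ± 0.196 (adjusted p = 6.60e-15) and in Krt8 by 0.80 ± 0.157 (adjusted p = 0.000467). Krt18 did not pass, with -0.02 ± 0.187 and an adjusted p of 0.987, and neither did Krt7, with -0.95 ± 0.338 and an adjusted p of 0.0676. With the embryo as a block, Krt7 was called at -0.97 (adjusted p = 0.0178). The 8 definitive endoderm markers summed to 241 to 271 CPM in axial mesoderm, 2 of them without a UMI, against 2023 to 2238 CPM in definitive endoderm.

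LRO cells were likewise higher than trunk mesoderm in all 4 keratins (35.8% of genes called). The log2 fold changes were 6.41 ± 0.219 for Krt19, 5.22 ± 0.454 for Krt7, 3.89 ± 0.137 for Krt8 and 3.096 ± 0.164 for Krt18, with adjusted p at most 5.92e-12. Compared with the axial mesoderm, where 10.6% of genes were called, LRO cells had less Krt19 (-2.10 ± 0.204, adjusted p = 1.14e-09), Krt18 (-1.25 ± 0.196, adjusted p = 1.39e-05) and Krt8 (-1.08 ± 0.161, adjusted p = 6.41e-06). Krt7 did not pass (-0.62 ± 0.432, adjusted p = 0.446). The axial markers T and Noto were higher in LRO than in axial mesoderm cells, and Shh was highest in axial mesoderm, while the 7 axial markers summed to 1539 to 2272 CPM in LRO and to 1844 to 2131 CPM in axial mesoderm cells. Where classes were taken from clusters in place of marker gates, the LRO mean fell to 772 CPM for Krt8 and 105 CPM for Krt19, which is over 1.5 times below the gated value, and the axial mesoderm mean was 2795 CPM for Krt8.

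**Figure D2:**
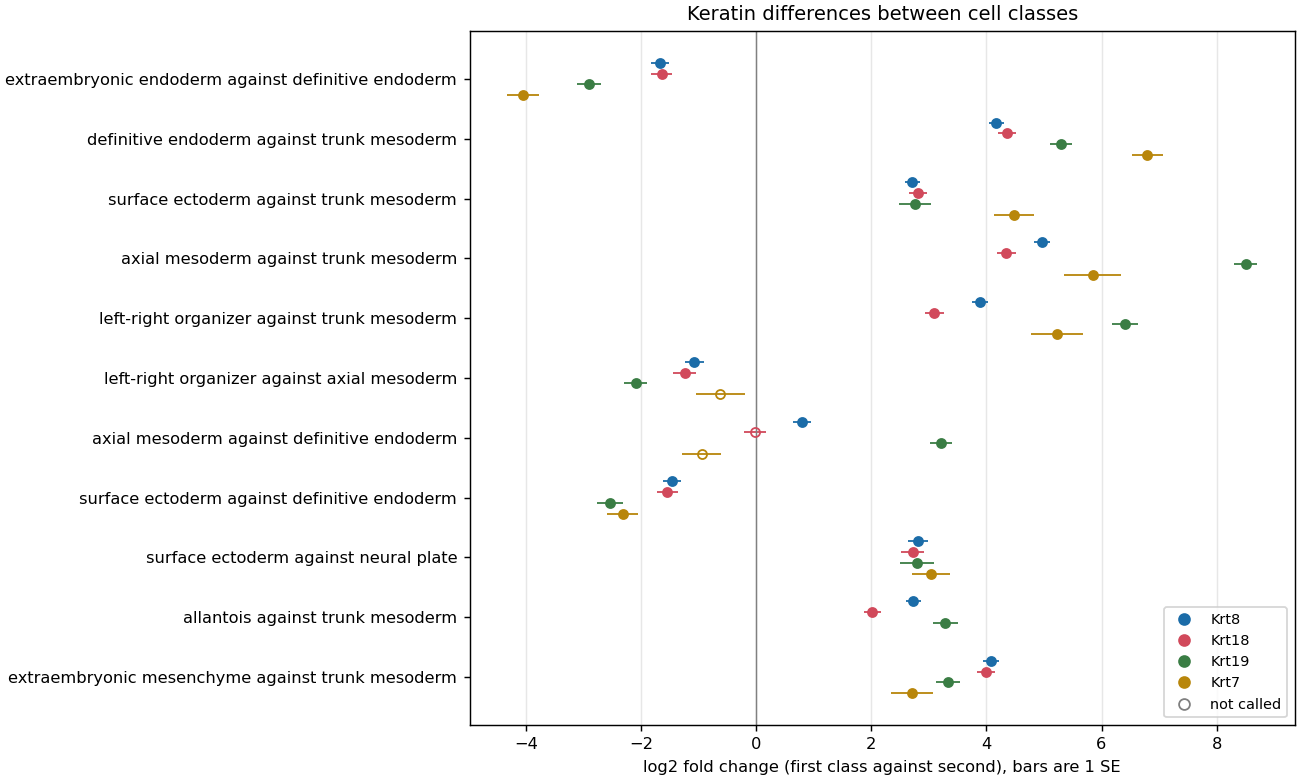
Log2 fold change of each keratin in 11 comparisons of cell classes, with bars of 1 SE and open symbols for changes that did not pass an adjusted p of 0.05. Krt19 in axial against trunk mesoderm lies furthest right at 8.50, and Krt7 of the allantois, with 5 UMIs in all, is left out.

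Among extraembryonic mesodermal classes, the extraembryonic mesenchyme was higher than trunk mesoderm in all 4 keratins (33.3% of genes called), with 4.08 ± 0.134 for Krt8, 3.995 ± 0.158 for Krt18, 3.33 ± 0.213 for Krt19 and 2.71 ± 0.366 for Krt7 on the log2 scale (adjusted p at most 1.89e-07). These cells carried Acta2 and Tagln, while their marker Postn was low and higher in LRO cells. Their Krt8 values of 1166, 1396 and 1204 CPM overlapped those of definitive endoderm. In the allantois (32.3% of genes called) Krt19 was higher by 3.29 ± 0.225, Krt8 by 2.73 ± 0.131 and Krt18 by 2.02 ± 0.156, with adjusted p at most 5.74e-13, and Krt7 was not called with an adjusted p of 0.355.

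As the 2 chain types pair in equal numbers in filaments, the ratio of their UMIs was taken per class, as a description without a test. The ratio of Krt8 to Krt18 UMIs was 1.64, 1.58 and 1.44 in LRO cells, 1.39, 1.49 and 1.51 in the allantois and 1.39, 1.39 and 1.36 in the axial mesoderm. It was 0.875, 0.732 and 0.775 in the definitive endoderm and between 0.785 and 0.914 in the surface ectoderm. Each of the first 3 classes thus lay above 1 and each of the latter below 1 in every embryo. This was not particular to them. Cardiac mesoderm, endothelium and presomitic mesoderm also lay above 1 in every embryo, the last at only 1.008 and 1.006 in embryos 2 and 3. Extraembryonic endoderm, paraxial mesoderm and neural plate lay below 1 in every embryo. With classes from clusters the surface ectoderm of embryo 1 was at 1.06, and cardiac mesoderm was at 0.924 and 0.940 in embryos 2 and 3. The mean LRO ratio of 1.31 with clusters lay below those of axial mesoderm (1.40) and endothelium (1.34). Krt19 supplied 30.6% ± 3.35 of the type I UMIs (Krt18 plus Krt19) in the axial mesoderm and 19.99% ± 2.54 in LRO cells, against 4.55% ± 0.785 in the definitive endoderm and at most 5.62% in any other class. With Krt7 and Krt19 counted, the type II to type I ratio was 0.972 ± 0.0363 in the axial mesoderm, 1.27 ± 0.125 in LRO cells and 0.793 ± 0.0722 in definitive endoderm. UMIs count transcripts and not protein chains, and those of 1 gene may be captured more readily than those of another. A ratio of 1 thus does not mark equal numbers of chains, and the ratio is best read between classes.

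**Figure D3:**
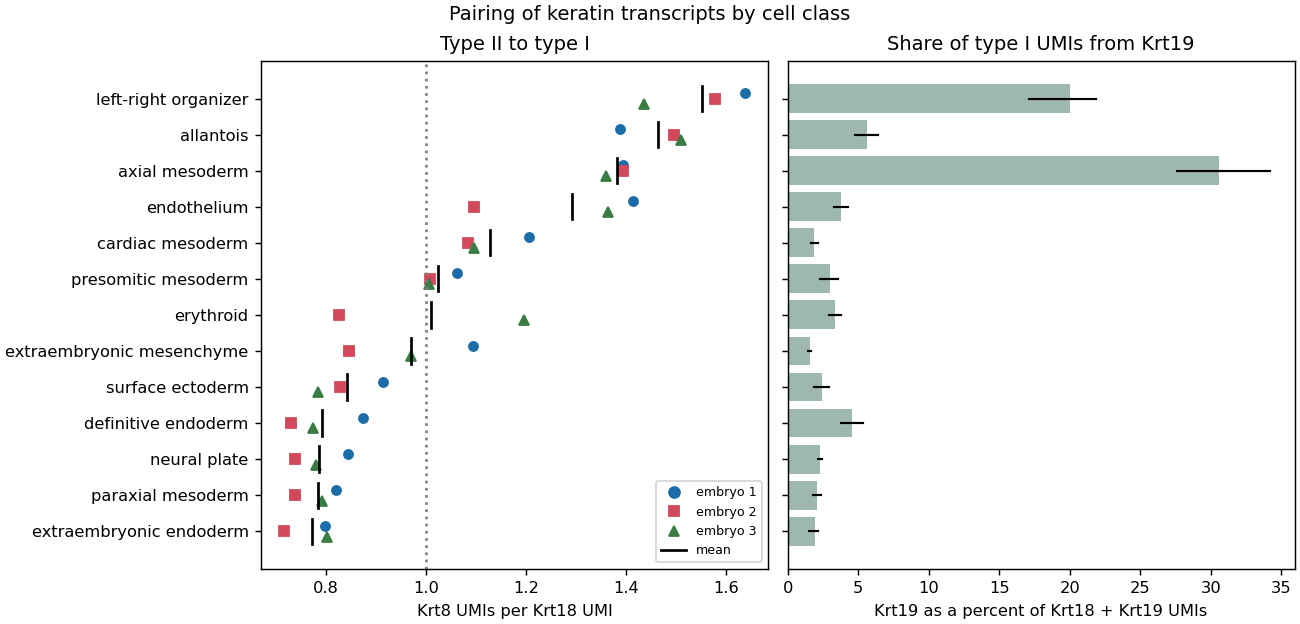
Left, Krt8 UMIs per Krt18 UMI in each class and embryo, with a line at the mean and a dotted line at 1. Right, mean percent of type I UMIs that came from Krt19, with lines from the lowest to the highest embryo. With these marker-gated classes LRO cells have the highest mean ratio at 1.55, a rank lost with classes from clusters, and axial mesoderm has the highest Krt19 share at 30.6%.

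In single cells thinned to 5000 UMIs, Krt8 and Krt18 were found together in 98.6% ± 0.917 of definitive endoderm, 96.9% of extraembryonic mesenchyme, 96.3% of axial mesoderm and 83.4% of LRO cells. In the surface ectoderm 61.1% of cells held both, 10.1% Krt8 alone, 16.5% Krt18 alone and 12.3% neither. In the presomitic mesoderm 72.7% held neither, and in erythroid cells 88.96%. Of 798 thinned cells with a Krt19 UMI, 751 (94.1%) also held Krt8 or Krt18, and of 403 with a Krt7 UMI, 388 (96.3%) did. Over all 14910 thinned cells of the classes 62.6% held Krt8 or Krt18, and most of the cells with Krt19 or Krt7 were in classes where nearly every cell did. Where the basic pair was sparse, the share among Krt19 cells was lower, at 5 of 14 in presomitic mesoderm (27.1% of all its cells), 14 of 25 in neural plate (35.7%) and 0 of 3 in erythroid cells (10.9%). The share was 11 of 14 in paraxial mesoderm (49.1%) and 17 of 24 in endothelium (59.5%). All 4 keratins were found together in 18.4% of axial mesoderm, 9.49% of LRO and 7.68% of definitive endoderm cells.

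**Figure D4:**
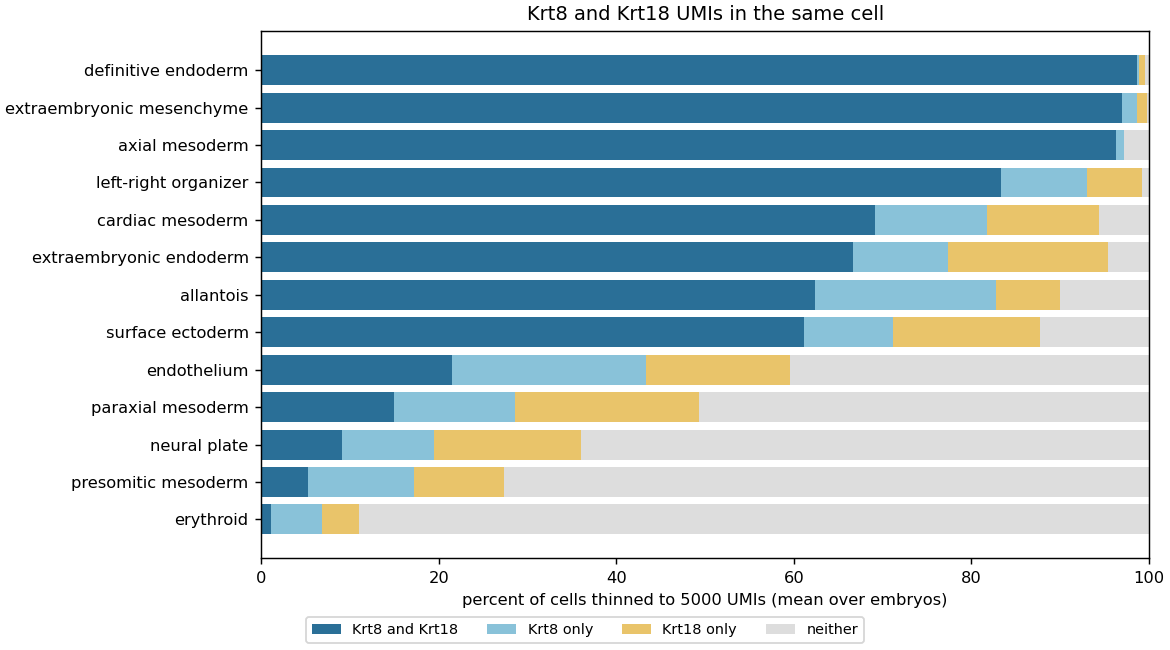
Percent of thinned cells in each class with UMIs of Krt8 and Krt18, of Krt8 alone, of Krt18 alone or of neither, as means over embryos. Definitive endoderm has both in 98.6% of cells and erythroid cells have neither in 88.96%.

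The rank correlation of the 2 basic keratins from cell to cell differed between classes. Spearman's rho of Krt8 and Krt18 UMIs across thinned cells of 1 embryo was on average 0.73 in LRO cells (0.66 to 0.84, from 33 to 45 cells), 0.71 in axial mesoderm, 0.63 in surface ectoderm and 0.50 in definitive endoderm and extraembryonic mesenchyme. It was 0.42 in allantois and between 0.22 and 0.32 in extraembryonic endoderm, neural plate, endothelium and the presomitic, paraxial and cardiac mesoderm, against 0.13 in erythroid cells. For Krt8 and Krt19 it was 0.58 in axial mesoderm and 0.54 in LRO cells but -0.02 in definitive endoderm, where it ranged from -0.16 to 0.05 between embryos. These cells share a library and a depth, and the values are descriptions. Counts near 0 also limit rho. Thinned Krt8 UMIs per cell were 13.9 to 17.1 in axial mesoderm, 6.64 to 8.41 in definitive endoderm, 2.17 to 2.67 in surface ectoderm and 0.196 to 0.316 in presomitic mesoderm. Those of Krt19 were 4.04 to 6.18 in axial mesoderm and 0.318 to 0.531 in definitive endoderm. The part of such counts in the order of classes was not tested.

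Keratin levels in definitive endoderm cells were also set beside the axial genes they carried, as a description. The 480 cells with a UMI of the posterior genes Cdx1 or Cdx2 and none of Otx2 were set beside 154 cells with Otx2, a marker of the anterior end, and neither Cdx1 nor Cdx2. Krt19 stood at 109 ± 25.8 CPM in the posterior and 50.7 ± 23.6 CPM in the anterior cells, and the ratio within an embryo lay between 1.64 and 2.69, higher in 3 of 3 embryos. Krt8 went the other way, with 1254 ± 34.8 against 1503 ± 216 CPM and ratios of 0.704 to 0.923, and so did Krt18 with ratios of 0.749 to 0.95. This split was chosen after the class values were seen and was not tested.

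Of 45 further keratin features, 36 had a UMI in the classes and 9 had none. Krt10 and Krt15 exceeded 5 CPM in a class mean, and both were highest in the axial mesoderm, at 18.3 ± 4.98 and 16.7 ± 3.00 CPM. Krt10 had 4985 UMIs in the classes, more than the 2068 of Krt7, and Krt15 had 121. Almost all Krt10 UMIs lay outside the axial mesoderm, so its rank there does not make it particular to that class. Krt10 and Krt15 are type I chains, best known from stratified epithelia. The remaining 43 stayed below 5 CPM in every class.

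Over the 38 sums of a class in an embryo, log2(CPM + 1) of Krt8 and Krt18 had a Pearson correlation of 0.98, Krt8 and Krt19 of 0.90, Krt7 and Krt19 of 0.82, and Krt7 and Krt8 of 0.73. Sums of 1 embryo share its library, so this describes likeness of pattern and no more. Among 14572 tested genes that were neither keratins nor class markers, Fndc3b, Dsp, Nbeal1, Bcar3 and Emp2 were most like Krt8 (r between 0.88 and 0.91), and Fndc3b, Emp2, Myl6, Bcar3 and Nbeal1 were most like Krt18 (0.87 to 0.91). Mmp11, Fermt1, Myo5c, Cldn9 and Cldn6 were most like Krt7 (0.85 to 0.89). For Krt19 they were Perp, Vwa5a, Mnx1, 9530036O11Rik and Moxd1 (0.89 to 0.91). Dsp encodes desmoplakin, which ties keratin filaments to desmosomes, and Perp is a desmosomal membrane protein.

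A list of 19 keratin partners held the plakins, desmosomal proteins, hemidesmosomal proteins, keratin-binding factors and other intermediate filaments. Against trunk mesoderm, 11 of the 19 rose and 2 fell in definitive endoderm (median log2 fold change 0.79), 10 rose and 1 fell in surface ectoderm (0.41), 3 rose and 1 fell in axial mesoderm (0.31), and 6 rose and none fell in LRO cells (0.48). With RLE scaling 5 rose in axial mesoderm and with DESeq2 6, each with 1 lower, and no median against trunk mesoderm changed sign. In the extraembryonic mesenchyme 8 rose and 2 fell (-0.0041), and in the allantois 6 rose and 3 fell (0.13). The median over all genes tested lay between -0.10 and -0.01 in these 6 comparisons. Of all genes tested, 24.8% rose and 22.5% fell in definitive endoderm, 10.0% and 9.37% in surface ectoderm, 7.72% and 8.45% in axial mesoderm, 18.6% and 17.2% in LRO cells, 18% and 15.3% in the extraembryonic mesenchyme, and 15.6% and 16.7% in the allantois. The 4 of 19 called in axial mesoderm and 6 of 19 in LRO cells are shares near those of all genes called there, 16.2% and 35.8%. The linker Dsp and the desmosomal plaque gene Pkp2 rose in all 6, Dsp by 1.96 ± 0.213 in axial mesoderm and 2.49 ± 0.166 in LRO cells, and Pkp2 by 3.43 ± 0.134 in the extraembryonic mesenchyme and 2.38 ± 0.300 in axial mesoderm. The desmosomal genes Dsg2 (2.88 ± 0.185), Dsc2 (2.92 ± 0.152) and Jup (3.04 ± 0.199) rose in definitive endoderm, where Nes, a filament gene of neural and mesodermal cells, fell by 3.61. Dsp stood at 213 ± 68.4 CPM in LRO cells, 146 ± 29.1 in axial mesoderm, 129 ± 5.29 in definitive endoderm and 3.35 ± 0.548 in erythroid cells.

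A list of 17 epithelial junction genes and regulators followed the keratins in some classes and not in others. Against trunk mesoderm, 15 rose and 1 fell in definitive endoderm (median log2 fold change 3.20), 17 of 17 rose in surface ectoderm (2.94), 11 rose and none fell in axial mesoderm (1.95), and 8 rose and none fell in LRO cells (0.86). In the allantois 1 rose and 10 fell (-1.19), and in the extraembryonic mesenchyme 3 rose and 5 fell (-0.16), beside a rise of Krt8, Krt18 and Krt19 in both. The 3 of 17 that rose in the mesenchyme are a share near the 18% of all genes that rose there. The tight junction gene Cldn6 rose by 5.38 ± 0.150 in definitive endoderm, 4.59 ± 0.215 in axial mesoderm and 4.12 ± 0.193 in LRO cells. Cdh1, the adhesion molecule of epithelia, rose by 2.17 ± 0.261 in axial mesoderm and 2.23 ± 0.210 in LRO cells and fell by 2.17 in the allantois. Grhl2, a regulator of epithelial identity, rose by 4.05 ± 0.208 in surface ectoderm. Axial mesoderm against definitive endoderm had 10 of the 17 lower and none higher, where 6.12% of all genes tested were lower and 4.31% higher. Epcam was at -1.98 ± 0.201 and Cldn7 at -2.88 ± 0.390, whereas Krt8 and Krt19 were higher there.

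Transcripts of near-identical copies can draw reads from these genes. In GENCODE, the processed pseudogenes Krt8-ps (98.6% identity over 941 bases) and Gm5200 (90.5% over 1267 bases) resemble Krt8 and Krt18, and neither was among the counted features. Some Krt7 transcripts share up to 186 bases of at least 90% identity with transcripts of unrelated genes. How reads in such stretches were assigned was not tested.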

How the data were processed

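Embryos labelled wild type (n = 3), and labelled as whole but with extraembryonic tissue removed, were measured. Each had 1 library made by the 10x 3' v3 protocol. Per the labels, the authors processed the reads with Cell Ranger 3.1.0 against mm10, and they deposited raw UMI counts of 31054 features in every called barcode, without normalization. The deposited matrices held 6579, 8621 and 8333 barcodes and 207961733, 149341900 and 167503888 UMIs.

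Barcodes above 8500, 7500 or 8500 genes by embryo, below 1500 genes or above 10% mitochondrial UMIs were removed, as in the study. Doublets were scored with Scrublet in scanpy 1.11.5 at an expected rate of 6%. After clustering in Seurat 5.3.0, with keratins left out, 4 of 17 first-round clusters were removed, 1 made mostly of doublets and 3 of very low mitochondrial share. A cell joined a class if at least 3 of its markers (4 for the LRO) had a UMI and its score was at least 1.5 times that of any other class. LRO cells share axial markers, so against the axial class a looser limit was used. Their LRO score had to be at least the axial score divided by 1.5. Axial mesoderm cells needed 1.5 times the LRO score. The members, lists and classes were chosen with earlier results of these data known. UMIs were summed per class and embryo, with at least 10 cells a sum, and compared with edgeR 4.0.16 (R 4.3.3; TMM, filterByExpr, Benjamini-Hochberg). All 13 classes entered the fit. The code was tested on simulated data.

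Alternatives were DESeq2 1.42.0, RLE normalization, testing without a low-count filter, a replicate block for the embryo, fitting only the compared classes, each embryo left out, no removal of first-round clusters, a stricter gate, classes from clusters, and thinning. Sums of the same embryo pair by animal. Deviations from the class means correlated between -0.02 and 0.49 over 51 pairs of sums, of which 41 were over 0.1. Depth and cell number limit the precision, and SDs cover the spread between 3 embryos only (2 for erythroid cells). The SE of a fold change was derived from the log2 fold change and its F statistic. It rests on a spread estimated over all classes in the fit. Genes named were the 4 keratins, keratins of at least 5 CPM in a class mean, at most 6 genes of each list by size of change, and the 5 genes closest in pattern to each keratin. Coordinates came from GENCODE M21, and promoter windows from RefSeq, where Krt7, Krt8 and Krt18 matched. Similar transcripts were sought with blastn 2.17.0.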

Additional observations from a re-analysis of the deposited data

Results flagged for a closer look

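UMIs of the EGFP sequence were a signal outside the measurement of keratins. Embryo 1 had 28 EGFP UMIs in 20 cells and embryo 3 had 31 in 21 cells, above the limit of 3 that a count of 0 allows, while embryo 2 had 0 in 8116 cells. Of the 41 cells, 27 were in the LRO class, which held 93 cells in embryos 1 and 3. They were 14 of 46 LRO cells in embryo 1 and 13 of 47 in embryo 3. All 3 embryos are labelled wild type. The paper also describes a FOXJ1-EGFP mouse line, which it used for its sorted cells. The source of the EGFP UMIs was not tested. Krt8 in LRO cells was 1219.5 and 1029.8 CPM in embryos 1 and 3 and 1616 CPM in embryo 2. Classes where no embryo had EGFP cells went both ways. Embryo 2 was highest in Krt8 in definitive endoderm (1586 CPM against 1301 and 1343), surface ectoderm (553 against 397 and 523) and extraembryonic mesenchyme (1396 against 1166 and 1204). It was lowest in extraembryonic endoderm (343 against 406 and 373) and allantois (483 against 489 and 570). Its Krt8 value was the middle one in axial mesoderm (2590 against 2862 and 2280), paraxial mesoderm and neural plate. The part of EGFP in these differences was not tested.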

How the results depend on the processing

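Every called fold change of a keratin kept its direction and its side of the threshold under all alternatives run. Of 527 recomputed fold changes, 515 kept both, 3 passed the threshold anew and 9 reversed, all among changes that were not called. Krt7 in allantois against trunk mesoderm could not be fitted with only the compared classes, where too few UMIs were left. The 3 were Krt7 in axial mesoderm against definitive endoderm, with no filter, with the replicate block (-0.97) and with classes from clusters. The block changed no other call. Krt18 in that comparison (-0.02) reversed to 0.064 with DESeq2, 0.065 with RLE, 0.074 with only the compared classes, 0.081 with clusters and 0.14 with thinned cells, and lay between -0.20 and 0.14 with an embryo left out. Krt7 in allantois against trunk mesoderm reversed from -1.04 to 0.16 with clusters and 0.022 with thinned cells. The cause of these reversals was not tested.

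Counts of called genes over the whole table moved by over 1.5 times in some settings. With thinned cells, which hold fewer UMIs, the counts against trunk mesoderm were 4446 (6943 as reported) for definitive endoderm, 1363 (2844) for surface ectoderm, 1131 (2374) for axial mesoderm, 3212 (5261) for the LRO, 2876 (4747) for allantois and 3096 (4886) for extraembryonic mesenchyme. They were 828 (1553) for LRO against axial mesoderm, 602 (1531) for axial mesoderm against definitive endoderm, and 2261 (4486) and 1031 (2178) for surface ectoderm against definitive endoderm and neural plate. With an embryo left out, which leaves 2 a class, they lay between 1836 and 2042 for surface ectoderm, 1305 and 1548 for axial mesoderm, 3378 and 4407 for the LRO, 2858 and 3943 for allantois and 3201 and 4175 for extraembryonic mesenchyme, all against trunk mesoderm. They lay between 767 and 1239 for LRO against axial mesoderm, 789 and 1010 for axial mesoderm against definitive endoderm and 1296 and 1523 for surface ectoderm against neural plate. Classes from clusters gave 4283 for surface ectoderm against trunk mesoderm and 3330 against neural plate, and only the compared classes gave 886 for LRO against axial mesoderm. The cause was not tested for these 3.

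Scaling moved the share of higher genes among those called from 47.7% to 63.1% (RLE) and 70.8% (DESeq2) for axial and from 51.9% to 67.2% and 70.1% for LRO against trunk mesoderm, and from 41.3% to 54.5% and 63.6% for axial mesoderm against definitive endoderm. The median of all genes for LRO against trunk mesoderm moved from -0.05 to 0.09 (RLE) and 0.13 (DESeq2). Of 208 recomputed class levels 167 stayed within 1 SD, and 29 of the 41 that moved did so with clusters. Means moved by over 1.5 times in 18 cases with clusters (4 for Krt8, 3 for Krt18, 6 for Krt19 and 5 for Krt7) and in 4 with thinned cells. Of 52 ratios 43 stayed within 1 SD. With 22 to 47 cells an embryo, LRO and axial mesoderm values have the least depth behind them.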
